A study of Mus musculus with 15 samples.

Results

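The transcripts described here belong to 36 genes that move, bind or sense zinc and copper. They were taken by name from the array's annotation: every probe other than a control whose gene symbol begins with Slc39a or Slc30a, and those of Mt1, Mt2, Mt3, Mt4, Mtf1, Atp7a, Atp7b, Slc31a1, Slc31a2, Ccs, Cp and Atox1. This gave 45 probes for 36 genes, of 55681 probes and 24336 named genes on the array. They were measured in 15 liver tumors of C57BL/6J mice, with 1 array and total RNA of whole tumor tissue for each tumor. The p53f/f HCC group (n = 5) holds hepatocellular carcinoma (HCC) of mice with floxed, intact Trp53 alleles, the p53LKO HCC group (n = 5) HCC of mice with a liver-specific deletion of Trp53, and the p53LKO ICC group (n = 5) tumors of p53LKO mice that the labels call ICC, the usual abbreviation of intrahepatic cholangiocarcinoma. Separate tumors are the replicates. All mice had received carbon tetrachloride (CCl4), a hepatotoxin, by intraperitoneal injection for 16 weeks at 0.5 µl per g of body weight, every 3 days according to the labels, so no group is untreated and none is tumor-free liver. The study describes the arrayed HCC as tumors of male mice. Its text gives no sex for mouse 3977, which gave only an ICC. Injections began at 6 weeks of age, and the design sampled mice at 24 or 36 weeks of age. Tumors formed later in the study's p53f/f mice, which it also followed beyond these ages. The age of each arrayed tumor and the promoter that drives the Cre recombinase are not given in the sources used here. In comparisons with p53f/f HCC, age and genotype therefore cannot be told apart. The p53f/f HCC came from 4 mice, since mouse 3717 gave 2 tumors, and 4 p53LKO mice gave both an HCC and an ICC.

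Zinc enters the cytosol through the ZIP transporters, which the Slc39a genes encode, and leaves it, towards the outside or into vesicles and organelles, through the ZnT transporters of the Slc30a genes. Metallothioneins are small cysteine-rich proteins that bind zinc and copper, and their genes are switched on by the zinc-sensing transcription factor Mtf1 through metal response elements in their promoters. Copper is imported by Slc31a1 (Ctr1), handed by the chaperone Atox1 to the copper pumps Atp7a and Atp7b and by the chaperone Ccs to superoxide dismutase Sod1, and hepatocytes secrete it bound to ceruloplasmin (Cp). The liver is the main organ that stores and redistributes both metals, and liver metallothionein also answers to glucocorticoids and to the cytokines of the acute phase.

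The promoter windows of Mt1 and Mt2 are shown because the results turn on these genes, and those of Slc30a1 and Slc30a10 as examples of genes called lower in ICC. The bases before the annotated start of each gene are given 5′ to 3′ from RefSeq (GRCm38.p6, all on the plus strand), for Mt1 chr8:94178839-94179088, for Mt2 chr8:94172368-94172617, for Slc30a1 chr1:191906531-191906780 and for Slc30a10 chr1:185454598-185454847. Capitals mark matches to the core of the metal response element, searched as TGCGCNC and TGCACNC on both strands, with matches that overlap each other counted once.
Mt1: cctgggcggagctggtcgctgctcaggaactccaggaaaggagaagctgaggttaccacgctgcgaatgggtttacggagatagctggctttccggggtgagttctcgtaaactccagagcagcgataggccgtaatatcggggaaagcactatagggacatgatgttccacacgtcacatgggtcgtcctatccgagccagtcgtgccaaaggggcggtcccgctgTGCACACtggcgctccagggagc
Mt2: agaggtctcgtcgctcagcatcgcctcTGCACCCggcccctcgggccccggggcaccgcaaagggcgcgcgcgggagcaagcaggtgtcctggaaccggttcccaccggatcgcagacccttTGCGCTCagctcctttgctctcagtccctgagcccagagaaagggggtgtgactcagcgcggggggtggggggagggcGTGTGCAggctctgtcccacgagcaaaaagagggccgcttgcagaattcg
Slc30a1: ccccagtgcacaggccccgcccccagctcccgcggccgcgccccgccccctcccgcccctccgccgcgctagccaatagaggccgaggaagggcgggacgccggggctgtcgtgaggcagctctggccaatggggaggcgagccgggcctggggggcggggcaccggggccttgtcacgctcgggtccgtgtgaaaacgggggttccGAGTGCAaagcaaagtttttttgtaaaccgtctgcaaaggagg
Slc30a10: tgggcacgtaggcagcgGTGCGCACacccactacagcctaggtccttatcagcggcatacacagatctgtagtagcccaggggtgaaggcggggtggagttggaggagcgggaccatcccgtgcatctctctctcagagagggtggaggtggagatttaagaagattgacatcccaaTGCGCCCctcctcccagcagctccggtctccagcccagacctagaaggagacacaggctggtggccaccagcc
In the whole window, 250 bases before to 50 bases after the start, Mt2 held 4 matches, Mt1 held 3, and Slc30a1 and Slc30a10 held 2 each. Of the other genes called lower in ICC, Mt4, Slc39a5 and Slc39a8 held at most 1, Slc39a2 and Cp held 0, and Ccs and Slc39a4 had no listed promoter. Slc30a4, which was not called in any comparison, held 3, and Mtf1 held 0. Of the Mt1 matches, 1 lay before the annotated start, at bases 23 to 17 upstream, and the others lay at bases 3 to 9 and 21 to 27 downstream. Of all 32851 RefSeq mouse promoters of this length, 25.7% held at least 1 match, 6.14% at least 2, 1.31% at least 3 and 0.295% at least 4. For 31 of the 36 genes 37 promoters were listed, of which 19 (51.4%) had at least 1 match. Matches are a description of letters and no binding was measured. Only the window around the annotated start was searched, so the counts leave out elements that lie further away on either side.

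Before the results, the arrays were compared. The targeted gene, read by 1 Trp53 probe, lay at log2 levels of -1.01 ± 0.28 (SD, n = 5) in p53f/f HCC, -3.09 ± 0.46 in p53LKO HCC and -3.07 ± 0.70 in p53LKO ICC. The probe was well above background on 5, 3 and 1 of 5 arrays in this order, so the p53LKO levels are in part readings at background. Levels throughout are log2 signals relative to the 75th percentile of each array, so they order samples for 1 probe and not probes among each other. Between 55.1% and 70.1% of the probes were well above background on the p53f/f HCC arrays, 37.0% to 62.1% on the p53LKO HCC arrays and 42.5% to 47.0% on the ICC arrays. These shares also split by the row of the slide. Among p53LKO HCC, the 3 arrays in row 1 read 61.0% to 62.1% and the 2 in row 2 read 46.4% and 37.0%. All p53f/f HCC lay in row 1 and all ICC in row 2. Detection on the ICC arrays thus goes with the row as well as with the group. Against HCC of the same genotype, 7 of 10 hepatocyte markers were lower in ICC and, of 8 cholangiocyte markers tested, Krt7, Krt19, Epcam and Spp1 were higher while Cldn7 was lower. The summed level of the lymphocyte markers was 9.26 in p53f/f HCC replicate 3 against 2.33 to 3.25 on the 14 other arrays, and without that tumor the same 5 genes of the set were called between the HCC groups, while ICC against p53f/f HCC gained Mtf1 and Slc39a3. Of the other marker lists, ICC against p53LKO HCC had 1 of 6 macrophage and 3 of 6 lymphocyte markers higher, 3 of 3 erythroid and 1 of 2 pancreatic acinar markers lower and 0 of 5 endothelial markers called (1 at an unadjusted p under 0.05), and the neutrophil marker Cxcr2 was called lower with no ICC well above background. In ICC against p53f/f HCC, 3 of 6 macrophage, 6 of 7 stellate cell or fibroblast and 1 of 6 lymphocyte markers were higher, and 6 of 10 hepatocyte, 2 of 5 endothelial, 2 of 3 erythroid and 2 of 4 pancreatic acinar markers were lower. Between the HCC groups, the fibroblast marker Lum was higher (1.69 ± 0.54) and the endothelial marker Stab2 lower (-1.17 ± 0.35). In bulk tumor tissue, fewer cells of a type and less RNA per cell cannot be told apart.

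Of the 36 genes, 25 were well above background on all 15 arrays and Slc39a12, a zinc importer best known from the brain, on none. A gene was called at a limma adjusted p under 0.05, with Benjamini-Hochberg adjustment over all probes tested, together with a fold change over 2. Between p53LKO HCC and p53f/f HCC, 4 of 34 tested genes were called higher (11.8%, against 5.19% of all genes) and 1 lower (2.94%, against 10.8% of all genes). Between p53LKO ICC and p53LKO HCC, 1 of 32 was called higher (3.12%, against 13.2% of all genes) and 7 lower (21.9%, against 15.2%). Between p53LKO ICC and p53f/f HCC, 4 of 33 were called higher (12.1%, against 10.8%) and 6 lower (18.2%, against 11.9%). The median log2 fold changes of the tested genes were 0.23, -0.23 and -0.38 in this order, and those of all genes 0.06, -0.17 and -0.18. On the log2 scale, a scaling to the spike-in probes of the arrays in place of the 75th percentile moved the median of all genes by 0.74 between the HCC groups and by 0.75 in ICC against p53f/f HCC, and the calls then were 15 higher and 0 lower in the former and 11 higher and 1 lower in the latter. With that scaling, Slc39a8 was not called between the HCC groups, and of the 6 genes lower in ICC than in p53f/f HCC only Slc30a10 was still called. In ICC against p53LKO HCC, with the 75th percentile taken over probes well above background on all arrays, 4 were called higher and 5 lower. Whether the shares of the set differ from those of all genes was not tested. The 3 comparisons share their groups, so their values stand side by side and are not independent. The arrays lay on 2 slides, with 4 p53f/f HCC, 2 p53LKO HCC and 1 ICC on slide 1. With the slide as a block, 4 of the 10 calls of ICC against p53f/f HCC passed (Mt2, Slc39a4, Slc39a6 and Atp7a), and since all p53f/f HCC lay in row 1 of the slides and all ICC in row 2, row and group cannot be told apart in that comparison.

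**Figure D1:**
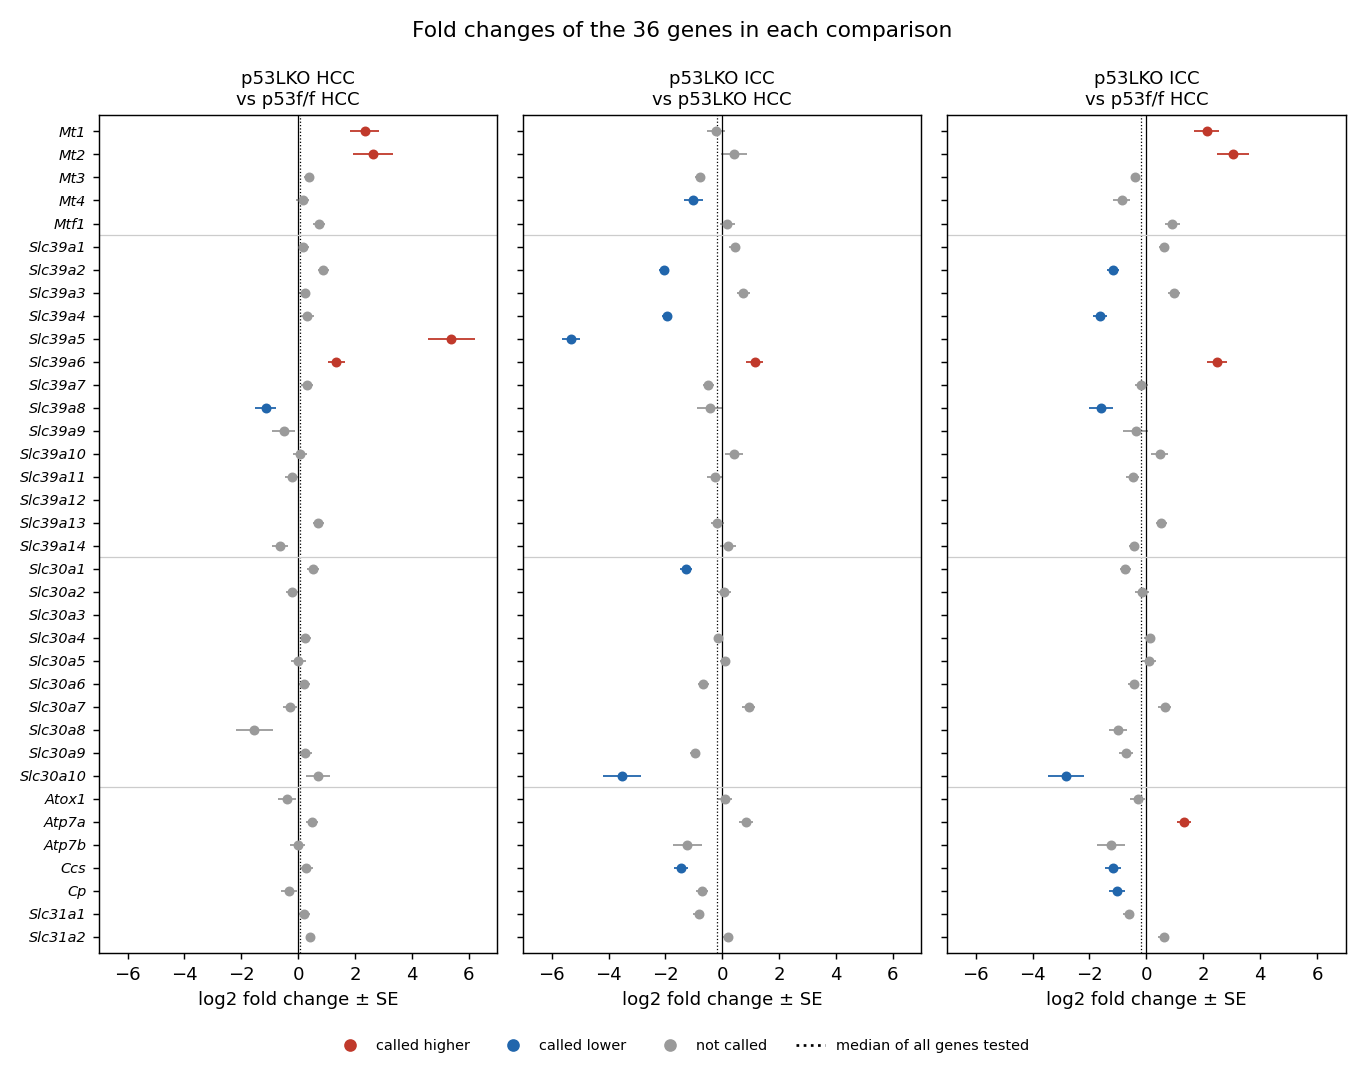
Log2 fold change (x axis, with its SE) of each of the 36 genes (y axis, grouped as metallothioneins and Mtf1, Slc39a, Slc30a and copper genes) in the 3 comparisons of 5 against 5 arrays. Red points are called higher, blue points lower and grey points are not called, a gene without a point was not tested, and the dotted line is the median of all genes tested. The Slc39a5 points, 5.38 between the HCC groups and -5.32 in ICC against p53LKO HCC, are fitted values against groups with 1 and 0 of 5 arrays well above background, and were 2.41 and -3.09 after normexp background correction.

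The metallothioneins Mt1 and Mt2, the inducible forms of the liver, were higher in both p53LKO tumor types than in p53f/f HCC. Mt1 read 3.89, 5.93, 6.55, 5.69 and 6.59 in p53f/f HCC, then 7.62, 8.58, 6.97, 8.67 and 8.47 in p53LKO HCC and 7.83, 7.67, 7.59, 8.12 and 8.02 in p53LKO ICC, in replicate order as in all lists that follow. Every p53LKO tumor lay above every p53f/f HCC, and the p53LKO groups overlapped. The log2 fold change was 2.33 ± 0.52 (SE) in p53LKO HCC against p53f/f HCC, a 5.03-fold difference (limma, adjusted p = 0.00643, exact permutation p = 0.00794, 2-sided, the smallest that the choices of 5 of 10 arrays allow). It was 2.12 ± 0.45 in ICC against p53f/f HCC (4.34-fold, adjusted p = 0.00528) and -0.21 ± 0.32 in ICC against p53LKO HCC (adjusted p = 0.61). With the slide as a block the value against p53f/f HCC was 1.79 for ICC and did not pass (adjusted p = 0.0649), and that between the HCC groups was 2.17 and passed. Mt2 read 2.26, 4.81, 5.39, 3.97 and 5.80 in p53f/f HCC, then 6.45, 8.17, 5.46, 7.89 and 7.40 in p53LKO HCC and 7.63, 7.19, 7.08, 7.84 and 7.68 in p53LKO ICC. All ICC lay above all p53f/f HCC, while p53LKO HCC replicate 3 lay below p53f/f HCC replicate 5. The Mt2 log2 fold change was 2.63 ± 0.69 between the HCC groups (6.18-fold, adjusted p = 0.0148, exact p = 0.0159), 3.04 ± 0.56 in ICC against p53f/f HCC (8.21-fold, adjusted p = 0.00281) and 0.41 ± 0.46 in ICC against p53LKO HCC (adjusted p = 0.491).

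Mt1 and Mt2 were ordered alike within the groups. In p53f/f HCC and in ICC the 5 tumors had the same order for both genes, and in p53LKO HCC only replicates 2 and 4, the highest, changed places. The lowest p53f/f HCC for both genes was replicate 1, and without it the log2 fold change between the HCC groups was 1.87 for Mt1 and 2.08 for Mt2, both still called. The spread was widest in the HCC groups, with an SD of 1.10 and 0.74 for Mt1 and 1.40 and 1.12 for Mt2, against 0.22 and 0.33 in ICC. The pair of tumors from mouse 3717 differed by 1.83 for Mt2, the largest difference of the 33 genes that were well above background on both of these arrays, of which 32 differed by less than 1. Within the 4 mice that gave both tumor types, ICC minus HCC was 0.86, -0.9995, -0.02 and -0.55 for Mt1 and 2.17, -0.70, 0.63 and -0.49 for Mt2, so neither gene had 1 direction across mice. Within the slides on which the arrays lay, the Mt1 difference between the HCC groups was 2.58 on slide 1 (2 p53LKO against 4 p53f/f tumors) and 1.45 on slide 2 (3 against 1), and that of Mt2 was 3.20 and 1.12. With the row of the slide as a block the Mt2 value was 2.47 and no longer passed, while Mt1 did at 2.31.

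**Figure D2:**
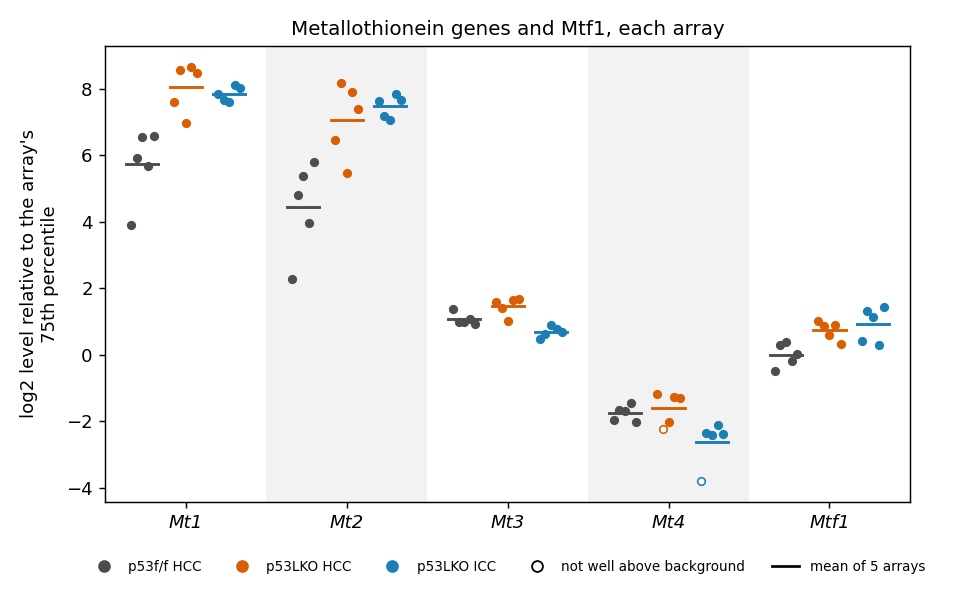
Log2 level relative to the 75th percentile of the array (y axis) of the metallothionein genes and Mtf1 (x axis) on each of 15 arrays. Points are single tumors in replicate order, open points were not well above background and bars are means of 5 arrays. For Mt1 all 10 p53LKO tumors lie above all 5 p53f/f HCC, while for Mt3 the ICC lie lowest.

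A second, dimmer Mt1 probe gave other values than the brightest one. It differed by -0.04 ± 0.52 between the HCC groups and was called higher in ICC against p53LKO HCC (1.37 ± 0.48, adjusted p = 0.0374), while in ICC against p53f/f HCC it differed by 1.33 ± 0.52 and did not pass (adjusted p = 0.0709). With the median of both probes, Mt1 differed by 1.15 between the HCC groups and was not called. The bright probe is annotated to the curated Mt1 transcript at chr8:96704165-96704224 and the dimmer to a predicted transcript at chr8:96703844-96703903 (both mm9, the build of the array files). The probes of Mt1 and Mt2 matched in at most 24 of 60 bases, and no pair of probes of different genes in the set matched in more than 31. Mt3, first known as a growth inhibitory factor of the brain, was 1.07 ± 0.18 (SD) in p53f/f HCC, 1.47 ± 0.28 in p53LKO HCC and 0.68 ± 0.16 in ICC. All 5 ICC lay below all HCC, with -0.78 ± 0.17 against p53LKO HCC (adjusted p = 0.00463), a change that stayed under the 2-fold limit.

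Mt4, the form of stratified squamous epithelia, read -1.96, -1.66, -1.68, -1.47 and -2.03 in p53f/f HCC, then -1.19, -2.25, -2.04, -1.26 and -1.29 in p53LKO HCC and -3.81, -2.35, -2.43, -2.12 and -2.40 in ICC. The ICC overlapped p53LKO HCC through HCC replicate 2, which was not well above background, and lay below all p53f/f HCC. The difference from p53LKO HCC just passed both limits at -1.01 ± 0.34 (2.02-fold, adjusted p = 0.0326). It missed them under 12 of 27 alternatives, among them normexp background correction (-0.19, adjusted p = 0.397) and the row of the slide as a block (-0.90). It did not pass without p53LKO HCC replicate 1 (-0.91), 4 (-0.93) or 5 (-0.93) or ICC replicate 1 (-0.72). Mtf1, the metal-responsive activator of metallothionein genes, was 0.00 ± 0.36 (SD) in p53f/f HCC, 0.74 ± 0.28 in p53LKO HCC and 0.92 ± 0.53 in ICC. It differed by 0.74 ± 0.21 between the HCC groups (adjusted p = 0.0225) and by 0.92 ± 0.28 in ICC against p53f/f HCC (adjusted p = 0.026), each under the 2-fold limit.

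Lists of genes with which liver metallothionein is known to move were set beside these values. Of 9 glucocorticoid response genes, limma called 0 between the HCC groups (3 at an unadjusted p under 0.05), where 5.19% of all genes were called higher and 10.8% lower, and their median was 0.37. The summed level of this list did not overlap between the HCC groups, at 5.33 to 5.68 in p53f/f HCC and 5.73 to 6.14 in p53LKO HCC, and was 5.42 to 5.76 in ICC. In ICC against p53f/f HCC, Sgk1 was called higher by 1.44 ± 0.21 and Zbtb16 lower by -1.33 ± 0.27. Of 18 acute phase genes, 2 were called higher in p53LKO HCC than in p53f/f HCC, Saa3 by 2.50 ± 0.58 and Lcn2 by 1.34 ± 0.31, and 2 lower, Fga by -1.33 ± 0.43 and Serpina3n by -1.38 ± 0.46, with a median of -0.01, beside the same shares of all genes. In ICC against p53f/f HCC, where 10.8% of all genes were called higher and 11.9% lower, 4 acute phase genes were higher, among them Saa1 by 2.90 ± 0.57 and Saa2 by 2.84 ± 0.66, and 6 lower. The neutrophil genes S100a8 and S100a9, whose proteins bind zinc as calprotectin, were higher in p53LKO HCC than in p53f/f HCC by 1.84 ± 0.54 and 2.10 ± 0.49. Of 4 neutrophil markers these were the 2 called higher, and the summed level of the list ranged from 1.72 to 3.74 in p53f/f HCC, 4.17 to 6.11 in p53LKO HCC and 2.52 to 6.03 in ICC. S100a8 and S100a9 stand on both lists. The p53f/f HCC lowest in Mt1 and Mt2, replicate 1, was also the lowest of all 15 tumors in the summed neutrophil (1.72), macrophage (5.20), stellate cell or fibroblast (4.99) and glucocorticoid response (5.33) lists, and the highest in the hepatocyte (12.1), acute phase (11.9), other zinc-binding (10.8) and pancreatic acinar (4.21) lists. The part of these lists in the metallothionein values was not tested.

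Among the 14 Slc39a genes, the importers, 2 of 13 tested were called higher and 1 lower in p53LKO HCC against p53f/f HCC (5.19% and 10.8% of all genes), and 1 of 12 higher and 3 lower in ICC against p53LKO HCC (13.2% and 15.2% of all genes). Slc39a5, a basolateral zinc transporter of intestine, pancreas and liver, read -6.53, -1.68, -6.58, -4.69 and -5.41 in p53f/f HCC, then 0.25, 0.48, -0.36, 0.04 and 1.57 in p53LKO HCC and -4.58, -5.03, -5.07, -4.90 and -5.03 in ICC. It was well above background in all 5 p53LKO HCC, in 1 of 5 p53f/f HCC (replicate 2) and in no ICC, and no p53LKO HCC overlapped the other groups. The log2 difference between the HCC groups was 5.38 ± 0.82 (adjusted p = 0.000766, exact p = 0.00794), where the gene entered the test through p53LKO HCC alone and 4 of the 5 p53f/f values are readings at background, so its size is not a measured one. With those 4 tumors at the lowest signal detected on their arrays and replicate 2 at its own value, p53LKO HCC was at least 20.85-fold higher (31.1-fold without replicate 2). Normexp background correction gave a smaller difference than these bounds, 2.41 or 5.33-fold over all 10 arrays. Against p53LKO HCC it was at least 8.67-fold lower in ICC (measured means -4.92 and 0.40, adjusted p = 3.73e-06), and 8.51-fold lower after normexp background correction. Here too the gene was tested through p53LKO HCC alone, and the p-value sets its signal there against ICC readings at background. On each slide the difference between the HCC groups had the same sign, 5.24 and 5.83. Slc39a5 is also a gene of the exocrine pancreas, and of 4 pancreatic acinar markers tested between the HCC groups 0 were called higher and Pnlip was called lower, with no p53LKO HCC and 3 of 5 p53f/f HCC well above background for it. The summed levels of these markers were 2.26 to 4.21 in p53f/f HCC and 2.51 to 3.32 in p53LKO HCC. Slc39a5 was not tested between ICC and p53f/f HCC because too few arrays lay above background.

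Slc39a6 was the gene called higher in all 3 comparisons. This importer (LIV-1) is known as an estrogen-regulated gene of breast cancer. It read -1.99, -0.64, -1.01, -0.91 and -0.29 in p53f/f HCC, then -0.13, 0.18, 0.67, 0.52 and 0.59 in p53LKO HCC and 0.79, 1.77, 1.87, 0.90 and 2.23 in ICC. The groups formed steps without any overlap. The differences were 1.33 ± 0.30 between the HCC groups (2.52-fold, adjusted p = 0.00667), 1.15 ± 0.30 in ICC against p53LKO HCC (2.21-fold, adjusted p = 0.0106) and 2.48 ± 0.37 in ICC against p53f/f HCC (5.58-fold, adjusted p = 0.000816). Between the HCC groups the call was lost after normexp background correction, at 0.97 (1.965-fold). In ICC against p53LKO HCC it was lost without ICC replicate 5, where the difference was 0.97, and within the 4 mice with both tumors ICC was higher in 4 of 4, by 0.12 to 2.06.

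Slc39a4 and Slc39a2 were lower in ICC. Slc39a4, the importer for dietary zinc whose loss causes acrodermatitis enteropathica in humans, read 8.59, 8.38, 8.56, 8.21 and 7.41 in p53f/f HCC, then 8.46, 8.23, 8.56, 8.59 and 8.86 in p53LKO HCC and 6.40, 6.49, 6.79, 6.39 and 6.92 in ICC. All ICC lay below all HCC of either genotype. The difference was -1.94 ± 0.18 from p53LKO HCC (3.84-fold, adjusted p = 4.23e-05) and -1.63 ± 0.24 from p53f/f HCC (3.1-fold, adjusted p = 0.000829), and 0.31 ± 0.24 between the HCC groups (adjusted p = 0.342). With scaling to spike-in probes the difference from p53f/f HCC was -0.88 (1.85-fold) and did not pass (adjusted p = 0.0539). Slc39a2, a plasma membrane importer, read -1.39, -1.90, -1.74, -1.98 and -2.35 in p53f/f HCC, then -1.27, -1.05, -0.81, -0.78 and -1.01 in p53LKO HCC and -2.93, -3.20, -3.39, -2.61 and -3.07 in ICC, where it was not well above background on any array. No group overlapped another. ICC was at least 3.28-fold lower than p53LKO HCC (measured means -3.04 and -0.98, adjusted p = 3.67e-05) and at least 1.77-fold lower than p53f/f HCC (measured mean -1.87, adjusted p = 0.00274), the latter bound lying under the 2-fold limit. In both comparisons the gene was tested through the HCC group alone, and the p-values set its signal there against ICC readings at background. Normexp background correction gave smaller differences than these bounds, 1.995-fold and 1.43-fold, and ended both calls. Between the HCC groups the difference of 0.89 ± 0.20 (adjusted p = 0.00622) stayed under the 2-fold limit.

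Slc39a8, an importer of zinc, manganese and iron, read 2.42, 1.35, 0.94, 2.12 and 1.92 in p53f/f HCC, then 0.57, 1.26, 0.56, 1.09 and -0.43 in p53LKO HCC and 0.83, -0.52, 0.94, 0.61 and -1.03 in ICC. All groups overlapped, and the p53f/f HCC reached the range of the p53LKO tumors through replicate 3. It was lower by -1.14 ± 0.36 in p53LKO HCC (2.20-fold, adjusted p = 0.033, exact p = 0.0317) and by -1.58 ± 0.43 in ICC (3.00-fold, adjusted p = 0.0165) when compared to p53f/f HCC. Leaving out 1 tumor ended the call between the HCC groups for 6 of 10 tumors, with -0.97, -1.05 and -1.10 without p53f/f HCC replicates 1, 4 and 5 and -1.13, -1.13 and -0.88 without p53LKO HCC replicates 1, 3 and 5. It also ended with the slide as a block (-1.05, adjusted p = 0.082) and with the tumors of mouse 3717 averaged (-1.07, adjusted p = 0.0723), and the slide as a block ended that of ICC against p53f/f HCC (-1.40). Slc39a14, its close relative and the importer of non-transferrin-bound iron in hepatocytes, was 3.52 ± 0.22 (SD) in p53f/f HCC, 2.88 ± 0.65 in p53LKO HCC and 3.07 ± 0.10 in ICC, and was not called in any comparison.

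**Figure D3:**
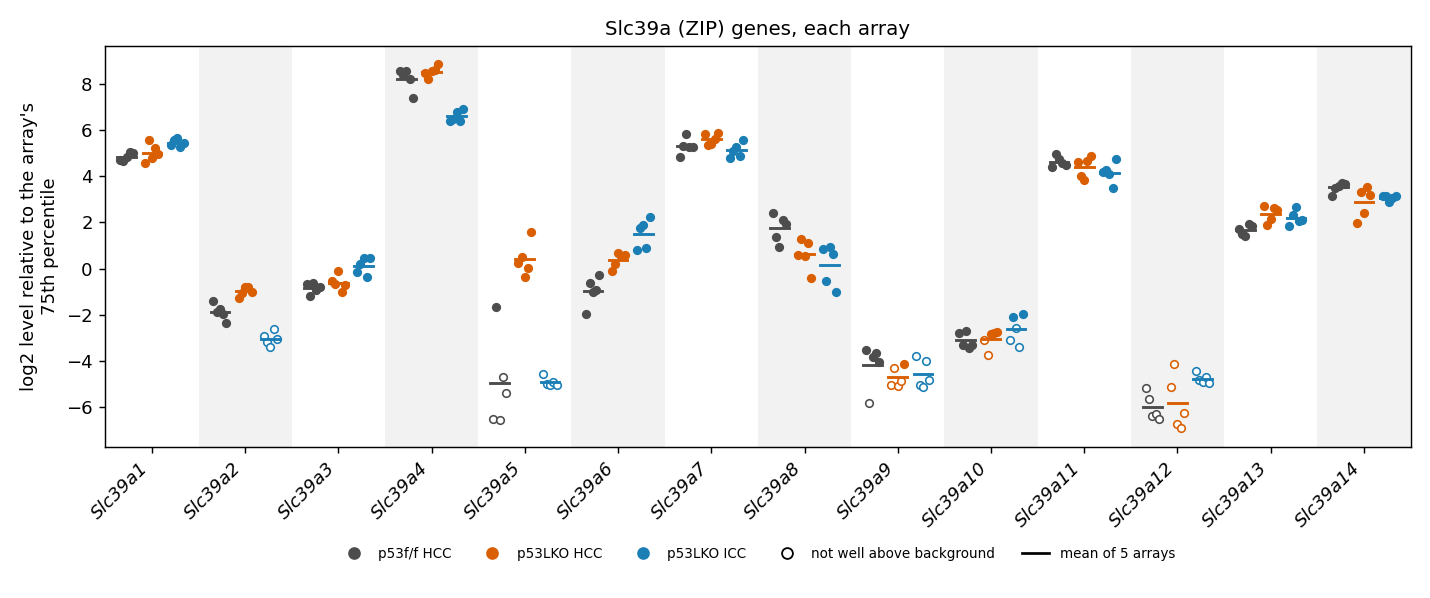
Log2 level relative to the 75th percentile of the array (y axis) of the 14 Slc39a genes (x axis) on each of 15 arrays, with points, open points and bars as in the plot of the metallothioneins. Slc39a5 stands above background in all 5 p53LKO HCC and in 1 other tumor, Slc39a4 is lowest in ICC, and Slc39a6 forms 3 steps without overlap.

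The other Slc39a genes were not called in any comparison. Slc39a3, a plasma membrane importer, was 0.97 ± 0.21 higher in ICC than in p53f/f HCC (adjusted p = 0.00548) and 0.74 ± 0.22 higher than in p53LKO HCC (adjusted p = 0.0202), and Slc39a1 was 0.61 ± 0.15 higher in ICC than in p53f/f HCC (adjusted p = 0.0122), all under the 2-fold limit. Slc39a13, a transporter of the early secretory pathway that connective tissue needs, differed by 0.70 ± 0.20 between the HCC groups (adjusted p = 0.0189). Slc39a7, which releases zinc from the endoplasmic reticulum, was 5.30 ± 0.35 (SD), 5.62 ± 0.24 and 5.12 ± 0.32 in p53f/f HCC, p53LKO HCC and ICC. Slc39a11 was 4.64 ± 0.21, 4.41 ± 0.46 and 4.16 ± 0.45 in the same order. Slc39a9 and Slc39a10 lay close to background, with 5 and 10 of 15 arrays well above it.

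Of the Slc30a genes, the exporters, 0 of 9 tested were called between the HCC groups by limma, the methods' t-test or the Mann-Whitney test, with 2 at an unadjusted p under 0.05 in limma (of all genes, limma called 5.19% higher and 10.8% lower). Slc30a1 and Slc30a10, transporters of the plasma membrane, were lower in ICC. Slc30a1, the main zinc exporter of most cells and itself a target of Mtf1, read 1.33, 1.20, 1.22, 1.88 and 1.68 in p53f/f HCC, then 1.99, 1.66, 2.25, 2.40 and 1.65 in p53LKO HCC and 0.73, 0.32, 0.79, 0.77 and 0.95 in ICC. Every ICC lay below every HCC. The difference was -1.28 ± 0.20 from p53LKO HCC (2.42-fold, adjusted p = 0.000706) and -0.75 ± 0.19 from p53f/f HCC (adjusted p = 0.0137, under the 2-fold limit), and within the 4 mice with both tumors ICC was lower in 4 of 4, by -0.70 to -2.08. The call against p53LKO HCC was lost with the 75th percentile taken over probes well above background on all arrays, at -0.91 (1.875-fold). Mt1 and Mt2, also Mtf1 targets, did not pass in the same comparison by their brightest probes, while the dimmer Mt1 probe did (1.37).

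Slc30a10, a manganese exporter of the plasma membrane in liver and brain, had the largest difference among the exporters. It read -0.51, 0.10, -0.13, -1.55 and -0.94 in p53f/f HCC, then 1.01, -1.19, 0.33, 0.34 and -0.01 in p53LKO HCC and -1.61, -5.08, -3.11, -2.46 and -4.89 in ICC. It was well above background on all HCC arrays and on 2 of 5 ICC arrays, and every ICC lay below every HCC. The log2 difference was -3.53 ± 0.67 from p53LKO HCC (11.6-fold, adjusted p = 0.00201) and -2.83 ± 0.64 from p53f/f HCC (7.09-fold, adjusted p = 0.0076), with ICC values that are in part readings at background, and it was -2.18 and -1.61 after normexp background correction. In both comparisons the gene was tested through the HCC group alone. ICC replicates 2, 3 and 5 read below the lowest signals detected on their arrays, -2.81, -2.89 and -2.81, so these folds are not measured sizes. The HCC groups differed by 0.70 ± 0.42 (adjusted p = 0.215). With the slide as a block, ICC differed from p53f/f HCC by -2.02 and did not pass.

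The other exporters were not called. Slc30a9, linked to mitochondrial zinc, differed by -0.95 ± 0.18 in ICC against p53LKO HCC (adjusted p = 0.00224), and its dimmer probe passed both limits at -1.21 ± 0.22 (adjusted p = 0.00151). Slc30a7, of the secretory pathway, was 0.93 ± 0.22 higher in ICC than in p53LKO HCC (adjusted p = 0.00699), and 1 of its dimmer probes was called higher there (1.12 ± 0.35) and lower in p53LKO HCC than in p53f/f HCC (-1.05 ± 0.31, adjusted p = 0.0253), with 2 of 5 ICC, 3 of 5 p53LKO HCC and 5 of 5 p53f/f HCC well above background. In ICC against p53f/f HCC another dimmer Slc30a7 probe differed by -0.12 ± 0.18, against 0.65 for the brightest, and neither was called. Slc30a6, a partner of Slc30a5 in the same pathway, differed by -0.67 ± 0.20 in ICC against p53LKO HCC (adjusted p = 0.018), and Slc30a5 by 0.10 ± 0.16 (adjusted p = 0.653). Slc30a4, of endosomes and milk, was 2.35 ± 0.37 (SD), 2.60 ± 0.23 and 2.46 ± 0.16 in p53f/f HCC, p53LKO HCC and ICC. Slc30a8, of the insulin granules of beta cells, was well above background in 5 of 5 p53f/f HCC, 1 of 5 p53LKO HCC and 0 of 5 ICC. Its p53f/f HCC values of -4.29 to -3.07 lay below the lowest signals detected on the ICC arrays, -2.89 to -2.37, so no fold is given. Slc30a2 and the synaptic vesicle transporter Slc30a3 were well above background on 10 and 1 of 15 arrays.

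**Figure D4:**
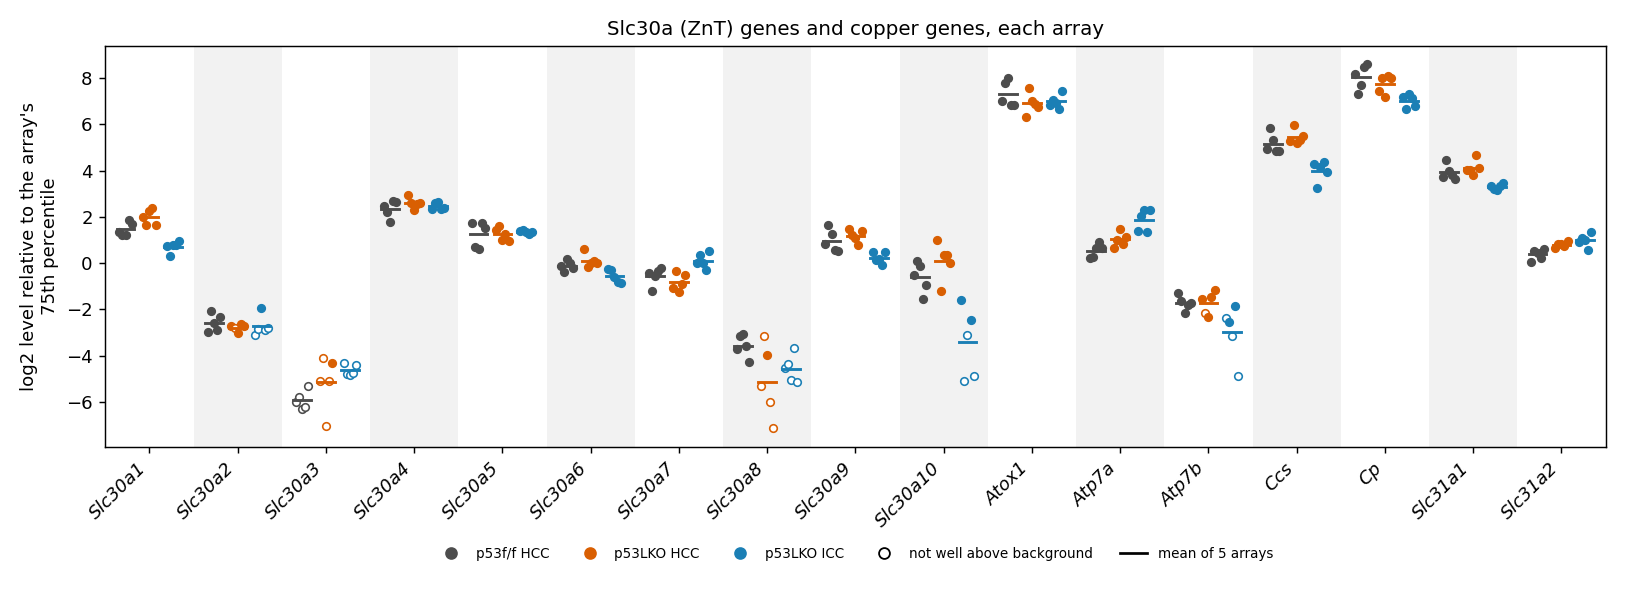
Log2 level relative to the 75th percentile of the array (y axis) of the Slc30a genes and the 7 copper genes (x axis) on each of 15 arrays, with points, open points and bars as in the plot of the metallothioneins. For Slc30a1, Slc30a10, Ccs and Slc31a1 all ICC lie below all HCC, and Atp7a is highest in ICC.

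Of the 7 copper genes, 0 were called between the HCC groups by limma, the methods' t-test or the Mann-Whitney test, with 2 at an unadjusted p under 0.05 in limma (5.19% and 10.8% of all genes were called higher and lower). In ICC, 1 was called lower against p53LKO HCC (15.2% of all genes), and 1 higher and 2 lower against p53f/f HCC (10.8% and 11.9% of all genes). Ccs, the copper chaperone of superoxide dismutase, read 4.94, 5.83, 5.34, 4.85 and 4.85 in p53f/f HCC, then 5.26, 5.99, 5.20, 5.32 and 5.50 in p53LKO HCC and 4.28, 3.23, 4.14, 4.36 and 3.93 in ICC. All ICC lay below all HCC. The difference was -1.47 ± 0.24 from p53LKO HCC (2.76-fold, adjusted p = 0.00099) and -1.18 ± 0.27 from p53f/f HCC (2.26-fold, adjusted p = 0.00757), the latter not called without ICC replicate 2 (-0.99) or with the slide as a block (-0.95). Sod1, the enzyme that Ccs loads with copper, was also lower in ICC, by -1.46 ± 0.20 from p53LKO HCC and -1.29 ± 0.22 from p53f/f HCC.

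Atp7a, the copper pump of most cells outside the liver, read 0.21, 0.28, 0.64, 0.91 and 0.66 in p53f/f HCC, then 0.67, 1.01, 1.49, 0.82 and 1.12 in p53LKO HCC and 1.38, 2.03, 2.28, 1.35 and 2.29 in ICC. All ICC lay above all p53f/f HCC, and p53LKO HCC overlapped both. ICC was higher than p53f/f HCC by 1.33 ± 0.25 (2.51-fold, adjusted p = 0.00283) and than p53LKO HCC by 0.84 ± 0.25 (adjusted p = 0.0185, under the 2-fold limit). Atp7b, the pump that hepatocytes use to send copper into bile and onto ceruloplasmin, was -1.72 ± 0.32 (SD) in p53f/f HCC, -1.74 ± 0.49 in p53LKO HCC and -2.96 ± 1.18 in ICC, where 2 of 5 arrays were well above background. Its difference of -1.23 ± 0.50 in ICC against p53LKO HCC did not pass (adjusted p = 0.0666).

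Ceruloplasmin, the secreted ferroxidase that carries most plasma copper, read 8.19, 7.29, 7.69, 8.49 and 8.60 in p53f/f HCC, then 7.42, 7.98, 7.17, 8.08 and 8.02 in p53LKO HCC and 7.17, 6.67, 7.33, 7.13 and 6.80 in ICC. The HCC groups overlapped broadly, while the ICC were reached by p53f/f HCC replicate 2 and p53LKO HCC replicate 3 alone. Cp was called lower in ICC than in p53f/f HCC at -1.03 ± 0.27 (2.05-fold, adjusted p = 0.0138), next to the 2-fold limit, and not without p53f/f HCC replicate 1 (-0.997), 4 (-0.92) or 5 (-0.89) or ICC replicate 2 (-0.95) or 5 (-0.98), nor with the tumors of mouse 3717 averaged (-0.91). A dimmer Cp probe had the opposite sign in all 3 comparisons and was not called, with 0.83 ± 0.45 there (adjusted p = 0.174), 0.28 against -0.32 for the bright probe between the HCC groups and 0.55 against -0.71 in ICC against p53LKO HCC. Slc31a1, the copper importer, was 3.92 ± 0.32 (SD) in p53f/f HCC, 4.13 ± 0.34 in p53LKO HCC and 3.29 ± 0.12 in ICC, and differed by -0.84 ± 0.18 in ICC against p53LKO HCC (adjusted p = 0.00433). Its relative Slc31a2 differed by 0.61 ± 0.19 in ICC against p53f/f HCC (adjusted p = 0.0283), and between the HCC groups by 0.42 ± 0.16 with its bright and -0.11 ± 0.13 with its dimmer probe, neither of which passed. The chaperone Atox1 was 7.31 ± 0.56, 6.91 ± 0.46 and 7.0 ± 0.29 in the 3 groups and did not pass in any comparison.

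Further copper genes were counted from a list of 20 for copper delivery and copper enzymes. In ICC against p53LKO HCC, 7 of 18 tested were called lower and 2 higher, where 15.2% and 13.2% of all genes were, with a median of -0.57. Those lower were Cox17 (-1.66 ± 0.22), Cox19 (-1.06 ± 0.25), Sco2 (-1.55 ± 0.31) and Coa6 (-1.39 ± 0.22), which serve the assembly of cytochrome c oxidase, Sod1, and the metalloreductases Steap3 (-1.71 ± 0.20) and Steap4 (-1.41 ± 0.31). Those higher were Lox, the collagen cross-linking enzyme, and Pam, which amidates peptides, by 1.19 ± 0.36. Lox was well above background in 5 of 5 ICC and in 1 of 5 p53LKO HCC, so the size of its difference is not given. Of 7 stellate cell or fibroblast markers, 6 were higher in ICC than in p53LKO HCC, with summed levels of 8.95 to 9.78 against 6.23 to 7.98. Between the HCC groups, Steap3 was the 1 gene called of 17, at 1.02 ± 0.33, where 5.19% of all genes were called higher and 10.8% lower. In limma, 5 of the 17 had an unadjusted p under 0.05. In ICC against p53f/f HCC, 3 of 17 were higher and 2 lower (10.8% and 11.9% of all genes), Sco2 by -1.69 ± 0.34 and Sod1. Of 9 other zinc-binding or zinc-carrying genes, 3 were called lower in ICC than in p53LKO HCC, where 15.2% of all genes were. These were the plasma zinc carriers Alb and Hrg, by -1.91 ± 0.48 and -2.47 ± 0.57, and the zinc receptor Gpr39. Gpr39 was well above background in 4 of 5 p53LKO HCC and 1 of 5 ICC, so the size of its difference is not given. Alb is also on the hepatocyte list.

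The mice with both tumor types gave the same directions for the genes called between ICC and HCC. Within these 4 mice, ICC minus HCC ranged from -2.16 to -1.31 for Slc39a4 and from -2.08 to -0.92 for Ccs. Slc39a5, Slc39a2, Slc30a10 and Mt4 also read lower in the ICC of all 4 mice, with ICC values at background for Slc39a5 and Slc39a2 in all 4, for Slc30a10 in 3 and for Mt4 in 1. With the mouse as a block, 9 genes were called in place of 8, the same 8 and Slc30a7. The summed level of 10 hepatocyte markers was 11.1 to 11.5 in p53LKO HCC and 7.85 to 10.6 in ICC, and its part in the genes lower in ICC was not tested. Within each slide, all 8 called genes kept the sign of the whole comparison, with 2 HCC and 1 ICC on slide 1 and 3 HCC and 4 ICC on slide 2.

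**Figure D5:**
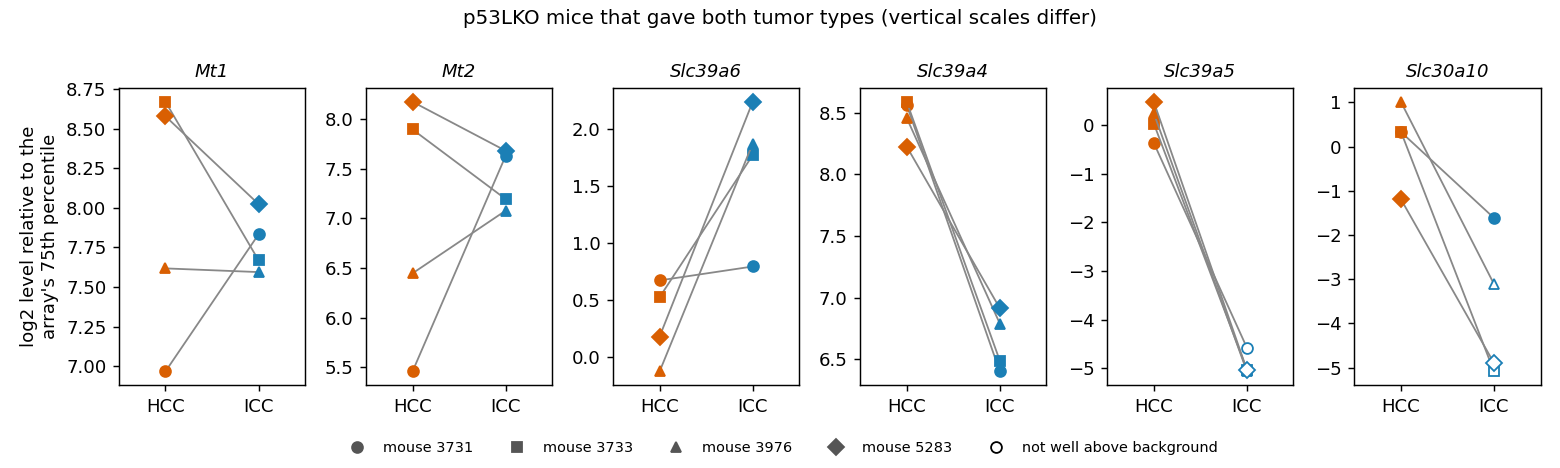
Log2 level relative to the 75th percentile of the array (y axis, scales differ between panels) in the HCC and the ICC (x axis) of the 4 p53LKO mice that gave both, for 6 genes. Lines join tumors of a mouse, marker shapes name the mouse and open markers were not well above background. Mt1 and Mt2 have no common direction, Slc39a6 is higher and Slc39a4, Slc39a5 and Slc30a10 are lower in the ICC of all 4 mice.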

How the data were processed

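Total RNA of each tumor was hybridised to a 1-colour Agilent mouse expression array. The intensity values are those the authors deposited from the scanner: processed signals, which Agilent Feature Extraction 10.7.3.1 had corrected for background and spatial trends, and a flag for probes well above background. The authors also deposited a log2 table, centred per probe, which served only as an alternative between the HCC groups; rebuilt values, centred alike, correlated with its columns at 0.999998 or more.

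Here the signals of spots of a probe were averaged on the log2 scale and each array's 75th percentile of non-control probes was subtracted. Probes that were well above background on 3 or more arrays of either group compared were fitted with limma 3.58.1 (R 4.3.3) on 10 arrays per comparison, with Benjamini-Hochberg adjustment over all of them (36082, 32669 and 35698 probes), and a call required both a change of more than 2-fold and an adjusted p below 0.05. Adjusted p-values in the text are from these fits. A gene is read by its probe with the highest mean level. Where all arrays of a group were not well above background, the fold is a lower bound against the dimmest signal detected on each array. Exact permutation tests of single genes were 2-sided. The pipeline was tested on simulated data. The number of arrays limits the precision, and p-values over p53f/f HCC count 2 tumors of 1 mouse separately.

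Every gene found by the name rule is described, with values of each array for Mt1, Mt2 and genes called in at least 1 comparison, and other probes where they differ in call or sign. The genes, lists and tests were chosen with earlier results of these data known. Mouse numbers in the labels pair 4 HCC with 4 ICC; the deviations of these pairs from their group means correlated at -0.142 to 0.066, against -0.263 to 0.283 for the 21 other pairings. The alternatives comprised background correction, scaling, filters, slide, row and mouse as blocks, other tests and thresholds, and leaving out each array; the difference within each slide was added after seeing the data. Motifs were searched in RefSeq promoters (GRCm38.p6), whereas probe positions are mm9, and the builds were not mixed.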

Additional observations from a re-analysis of the deposited data

Results flagged for a closer look

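Of 108 groups of 5 values (36 genes in 3 groups), 3 held 1 value whose gap to its nearest neighbour exceeded the critical share of 0.71 of the group's range, where about 5.4 are expected by chance at 1 in 20. Mt4 read -3.81 in p53LKO ICC replicate 1, where it was not well above background, against -2.43 to -2.12 in the other ICC. Slc30a2 read -1.93 in p53LKO ICC replicate 3, the only ICC in which it was well above background, against -3.13 to -2.82. Slc39a9 read -5.84 in p53f/f HCC replicate 2, where it was not well above background, against -4.06 to -3.52.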

How the results depend on the processing

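Of 23 called results of single genes, 5 kept their call under every alternative run and the 2 of Slc39a5 under every one in which it was tested, since requiring every array to be well above background left it out. Of these results, 65 of 622 values under alternatives missed the threshold, and 0 changed sign. Against 5 calls between the HCC groups, normexp background correction gave 3, the Mann-Whitney test 3, an adjusted p under 0.01 gave 3, no fold limit 8 and scaling to spike-in probes 15, and leaving out single arrays 4 to 7. Against 8 calls in ICC against p53LKO HCC, requiring every array to be well above background gave 4, no fold limit 16, and leaving out single arrays 7 to 10. Against 10 calls in ICC against p53f/f HCC, the slide as a block gave 4, no fold limit 20, and leaving out single arrays 8 to 14. With the mouse as a replicate block in the paired tumors, 9 genes were called in ICC against p53LKO HCC, the same 8 and Slc30a7, and no other call changed. The causes of these changes were not tested.

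Values that changed sign belonged to uncalled results. Mt1 in ICC against p53LKO HCC was 0.25 after quantile normalization, 0.16 with the 75th percentile taken over detected probes alone and 0.58 with the median of its probes. With scaling to spike-in probes, ICC against p53f/f HCC gave 0.02 for Slc30a9, 0.12 for Slc31a1 and 0.30 for Slc39a14. Signals near background limit Slc39a5, Slc39a2, Slc30a10, Slc30a8 and Mt4 in ICC, and Slc39a5 in p53f/f HCC, where fold changes depend on the background correction.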
